A study of Mus musculus with 10 samples.

Results

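Paneth cell antimicrobial genes were examined in RNA-seq data of mouse intestinal organoids, which are crypt cultures grown as closed epithelial structures in a gel. The 7 genes *Lyz1*, *Mmp7*, *Ang4*, *Itln1*, *Pla2g2a*, *Defa17* and *Defa24* were taken by their names from a count table of 47069 genes, and each name matched 1 row. Of these 47069 genes, 16179 passed the filter on low counts and were tested, and all 7 were among them. The filter could be passed on the level of a single group, and only *Lyz1* had at least 10 counts in both libraries of all 5 groups. *Defa17* and *Defa24* reached this in 2 groups, *Mmp7* in 3, and *Ang4*, *Itln1* and *Pla2g2a* in 4.

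All organoids carried the *Lgr5-EGFP-CreERT2* and *Ppp2r1a* flox/flox alleles (strain given as C57BL/6) and were kept for 50 days in Matrigel with a medium of Noggin, EGF and R-spondin 1. In these mice a Cre recombinase driven by *Lgr5*, a gene of crypt stem cells, removes part of *Ppp2r1a*, the scaffold subunit of the phosphatase PP2A, once tamoxifen (TAM) is given. There were 2 libraries in each of 5 groups: control (saline), DMBA (a chemical carcinogen, in a set named Long), TAM in a set named short, TAM in a set named long, and DMBA+TAM. Both TAM sets are described as dosage-sensitive TAM, and what short and long stand for is not given in the sources used here, nor is the dose, the gut segment or whether libraries of a group came from separate cultures. The control and DMBA groups carry the floxed alleles and the Cre too, without TAM. The library titles read NS for control, NL for DMBA, DSS_S for TAM short, DSS_L for TAM long and Lgr5 for DMBA+TAM, and what they stand for is not given in the sources used here either. Groups are named here by the descriptions of the libraries, not by these titles.

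Paneth cells sit at the base of small intestinal crypts, next to the Lgr5+ stem cells, and fill their granules with antimicrobial proteins that are released into the crypt lumen. They arise from secretory progenitors that also give rise to goblet cells, and they are scarce or absent in the normal colon. Lysozyme cleaves bacterial cell walls, alpha-defensins (cryptdins) are small cationic peptides that permeabilise bacterial membranes, and the protease matrilysin, encoded by *Mmp7*, cuts the defensin precursors to their active form in mice.

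Libraries differed from each other before any of the 7 genes was considered. Control, DMBA, TAM short and TAM long libraries held 8828247 to 10923673 reads counted on genes, and the DMBA+TAM libraries held 1592366 and 1915270. At these totals 3 counts, the level at which a bound is set for a group at 0, stand for a mean of 0.277 to 0.359 normalized CPM (counts scaled to the TMM-adjusted library total) in the first 4 groups and of 1.45 in DMBA+TAM. *Ppp2r1a*, counted over the whole gene so that deleted exons cannot be seen, had 123 and 129 normalized CPM in control, 131 and 147 in TAM short, 167 and 153 in DMBA, 169 and 157 in TAM long and 129 and 133 in DMBA+TAM. In DMBA+TAM the 8 epithelial markers summed to 22.0 and 32.7 normalized CPM against 12951 to 22350 in the other groups, while 7 fibroblast markers summed to 30806 to 31720 (629 to 2032 elsewhere) and 9 macrophage markers to 6383 to 6576 (211 to 428 elsewhere). The labelled tissue, an epithelial organoid, is therefore not matched by its markers in the libraries labelled DMBA+TAM. Gut segment markers also differed: 10 genes of the small intestine summed to 35355 to 37576 in control, 19460 to 21251 in TAM short, 457 to 832 in DMBA, 1054 to 1097 in TAM long and 1.06 to 4.41 in DMBA+TAM, and 7 colon genes summed to 324 to 358, 232 to 233, 4103 to 7631, 5865 to 12532 and 10.03 to 18.9 in the same order. Small intestine markers were thus high in the groups titled NS and DSS_S and colon markers in those titled NL and DSS_L. In DMBA against control, and likewise in TAM long against control, the last letter of the title and the treatment change together and cannot be told apart. The part of these differences in the results below was not tested, and because these are bulk libraries, fewer Paneth cells and less RNA per Paneth cell cannot be told apart.

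**Figure D1:**
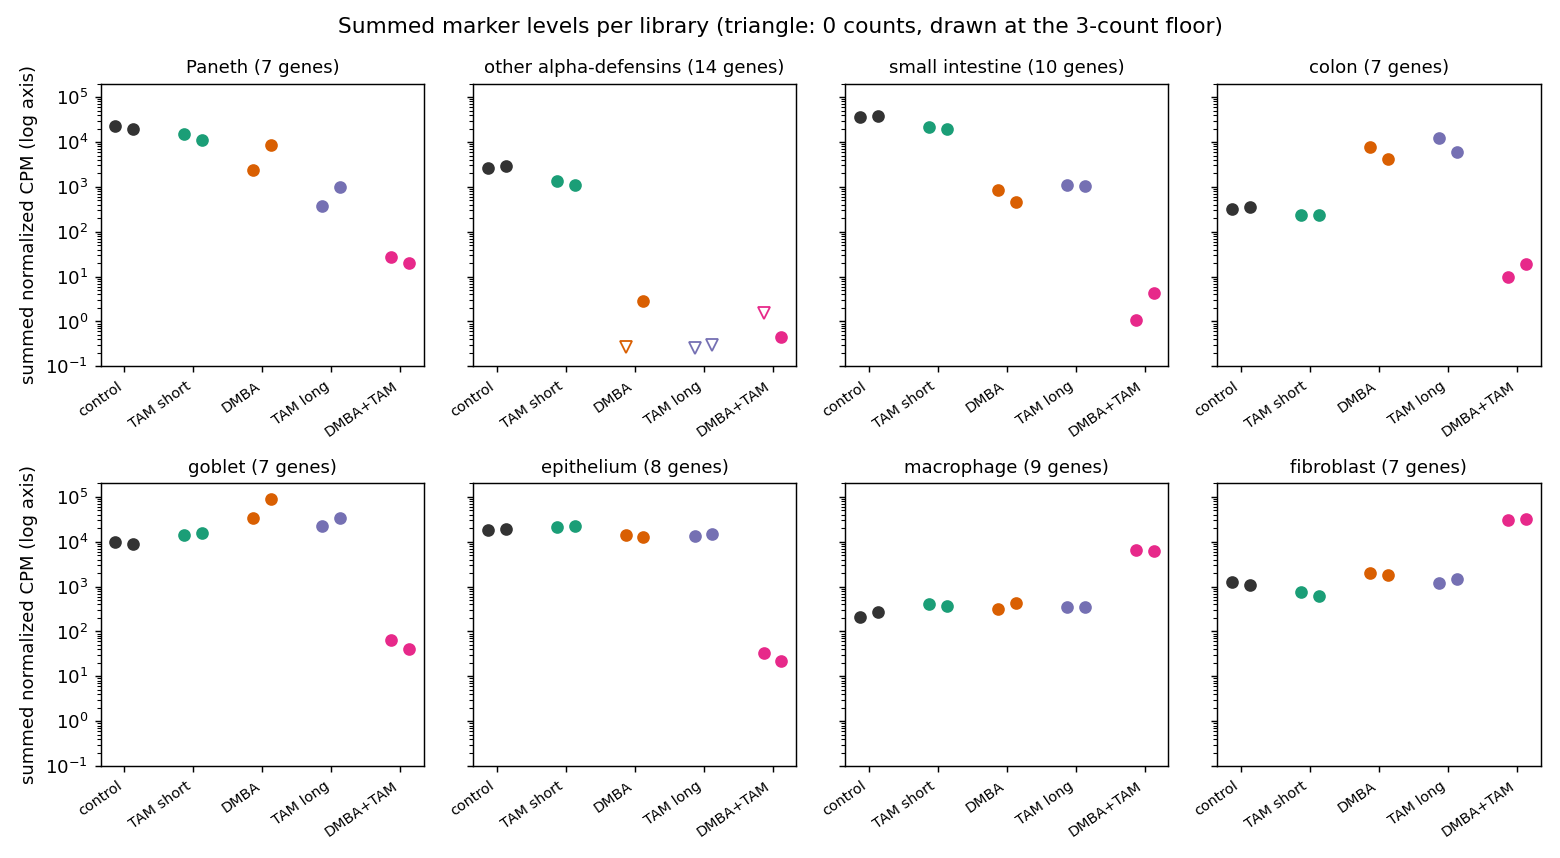
Summed normalized CPM of marker lists (log axis) in each of the 10 libraries, 1 point per library, coloured by group. The 7 Paneth genes and the small intestine genes are highest in control and TAM short, the colon genes are highest in DMBA and TAM long, and DMBA+TAM is lowest in epithelial and highest in macrophage and fibroblast genes.

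Because several of these genes have close relatives, the sequences are given first. *Lyz1* (ENSMUSG00000069515, chr10:117287796-117292868, minus strand, 4 exons) lies beside its paralog *Lyz2*, the lysozyme of macrophages, on GRCm38. Their coding sequences, read from GENCODE M21 transcripts without the stop codon, are both 444 bases long and differ at 22 of them, a 95% identity. Bases 1 to 240 of each are shown 5′ to 3′ with the 17 bases that differ there in capitals, since these are what separates reads of both genes.

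*Lyz1*: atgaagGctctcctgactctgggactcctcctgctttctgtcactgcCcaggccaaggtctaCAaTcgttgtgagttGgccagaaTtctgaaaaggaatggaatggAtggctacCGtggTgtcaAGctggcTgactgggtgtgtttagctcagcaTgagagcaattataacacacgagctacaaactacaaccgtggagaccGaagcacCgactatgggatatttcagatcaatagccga

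*Lyz2*: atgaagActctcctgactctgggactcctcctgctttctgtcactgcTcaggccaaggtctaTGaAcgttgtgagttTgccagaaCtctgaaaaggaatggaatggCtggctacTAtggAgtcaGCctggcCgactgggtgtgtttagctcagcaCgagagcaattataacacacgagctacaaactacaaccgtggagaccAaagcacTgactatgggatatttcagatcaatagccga

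Of all 50-base windows along the *Lyz1* transcript, 16.1% also occur in *Lyz2*, and of the 100-base windows 2.06%. The bases upstream of both genes are alike as well: the 250 bases before the start (RefSeq, GRCm38.p6, chr10:117292869-117293118 for *Lyz1* and chr10:117282273-117282522 for *Lyz2*, both minus strand) align with 79.4% identity, and the 50 bases next to the start are identical. Differences are again in capitals.

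*Lyz1* promoter: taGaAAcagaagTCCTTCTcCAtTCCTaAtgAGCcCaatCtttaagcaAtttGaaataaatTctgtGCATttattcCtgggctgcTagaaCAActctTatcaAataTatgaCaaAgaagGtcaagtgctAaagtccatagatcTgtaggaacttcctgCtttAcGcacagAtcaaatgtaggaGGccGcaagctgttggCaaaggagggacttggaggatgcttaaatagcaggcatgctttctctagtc

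*Lyz2* promoter: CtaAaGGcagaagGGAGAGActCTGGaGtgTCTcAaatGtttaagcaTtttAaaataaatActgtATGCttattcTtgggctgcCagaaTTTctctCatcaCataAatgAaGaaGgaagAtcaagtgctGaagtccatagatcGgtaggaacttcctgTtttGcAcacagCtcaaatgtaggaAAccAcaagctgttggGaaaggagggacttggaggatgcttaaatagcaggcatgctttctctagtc

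*Defa17* (ENSMUSG00000060208, chr8:21655780-21656735, plus strand, 2 exons) and *Defa24* (ENSMUSG00000064213, chr8:21734494-21735471, plus strand, 2 exons) belong to the alpha-defensin cluster. Each has a coding sequence of 279 bases, and 12 bases differ between them (95.7% identity), shown in capitals below.

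*Defa17*: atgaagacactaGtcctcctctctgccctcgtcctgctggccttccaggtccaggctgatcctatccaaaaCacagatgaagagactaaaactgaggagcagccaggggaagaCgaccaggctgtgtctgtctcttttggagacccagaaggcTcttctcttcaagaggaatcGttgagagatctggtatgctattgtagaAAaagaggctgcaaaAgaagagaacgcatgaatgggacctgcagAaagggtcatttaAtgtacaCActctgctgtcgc

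*Defa24*: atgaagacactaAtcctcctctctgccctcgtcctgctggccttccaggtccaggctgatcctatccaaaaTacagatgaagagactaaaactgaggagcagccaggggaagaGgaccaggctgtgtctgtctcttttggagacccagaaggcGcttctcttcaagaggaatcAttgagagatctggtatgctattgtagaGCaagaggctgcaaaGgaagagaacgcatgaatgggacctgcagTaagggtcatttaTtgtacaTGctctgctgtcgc

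The coding sequence of *Defa17* is identical in all 279 bases to that of a neighbour, *Defa3*. Of the 100-base windows of the *Defa17* transcript, 90.6% occur in *Defa3*, and of the 50-base windows 92%. A read given to *Defa17* or *Defa3* can therefore be placed with certainty only at the few bases where they differ, and the count of *Defa17* alone is uncertain. For *Defa24*, 28.1% of the 50-base windows and 0 of the 100-base windows occur in another gene, most of them in *Defa30*. For *Ang4* 4.7% of the 50-base windows were shared, for *Itln1* 1.01%, and for *Mmp7* and *Pla2g2a* none.

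In control organoids 6 of the 7 genes ranked among the first 49 of all genes. Levels of different genes are compared here only per length, in the deposited FPKM. *Defa24* had 13179 and 11984 FPKM in the control libraries and ranked as gene 2 of all genes in both of them. *Lyz1* followed with 6009 and 4615 FPKM, at ranks 6 and 9. *Pla2g2a* had 3369 and 2689 FPKM, *Itln1* 2647 and 1997, *Defa17* 2043 and 1922, and *Ang4* 1597 and 1477. *Mmp7*, the processing enzyme, was the least abundant with 149 and 120.3 FPKM, at ranks 795 and 991. The FPKM of *Itln1* and *Pla2g2a* was computed by the authors with a gene length of 782 and 648 bases in place of the listed 1141 and 788, which raises them against the other genes. In this order the control libraries of *Itln1* and *Defa17* overlapped, and those of the other neighbours did not. The order holds for the deposited FPKM only. With its listed length *Itln1* would lie below *Defa17* in both control libraries and overlap *Ang4*.

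As a share of the summed FPKM of the 7 genes, *Defa24* made up 45.5% and 48.3% in control, *Lyz1* 20.7% and 18.6%, and *Ang4* 5.51% and 5.96%. In both DMBA libraries *Ang4* made up 85.9% and 90.3%, and in TAM long 69.3% and 88.8%. In DMBA+TAM the remaining signal was 70.6% and 89% *Lyz1*. The sum itself was 28993 and 24804 FPKM in control, 3820 and 11764 in DMBA, 549 and 1450 in TAM long, and 31.0 and 19.5 in DMBA+TAM.

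**Figure D2:**
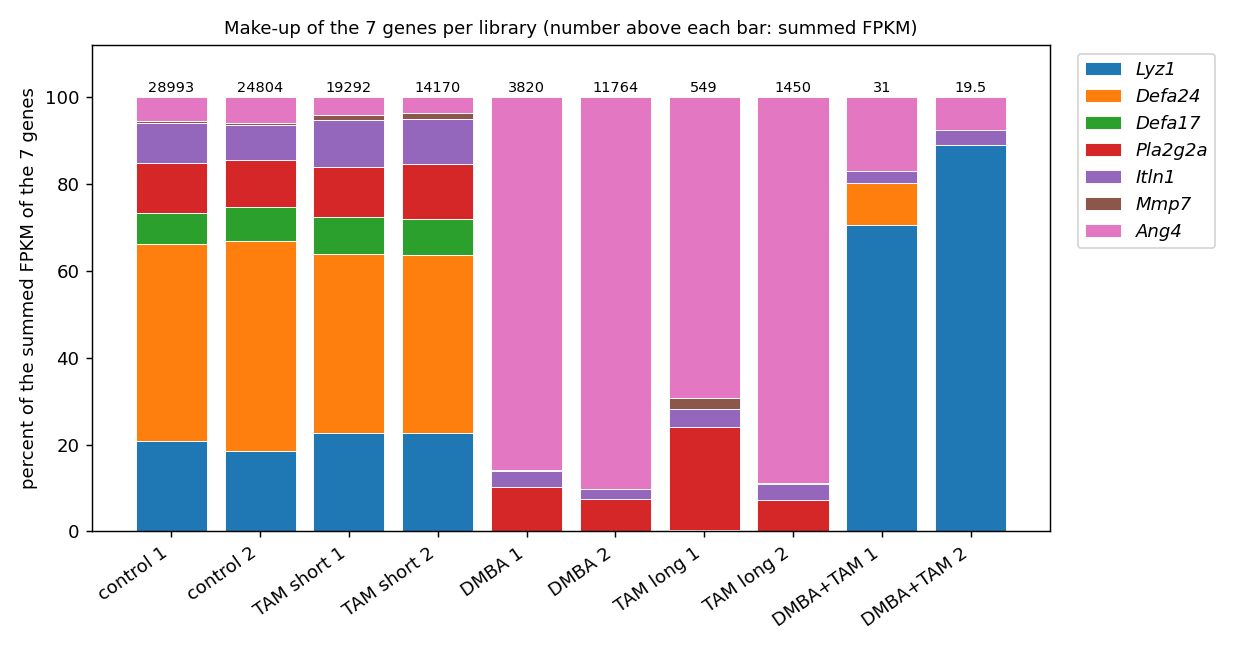
Percent of the summed FPKM of the 7 genes taken by each gene, 1 bar per library, with the summed FPKM above each bar. *Defa24* and *Lyz1* fill most of the bars of control and TAM short, *Ang4* fills 69.3% to 90.3% of the bars of DMBA and TAM long, and *Lyz1* 70.6% and 89% of the small remainder in DMBA+TAM.

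**Figure D3:**
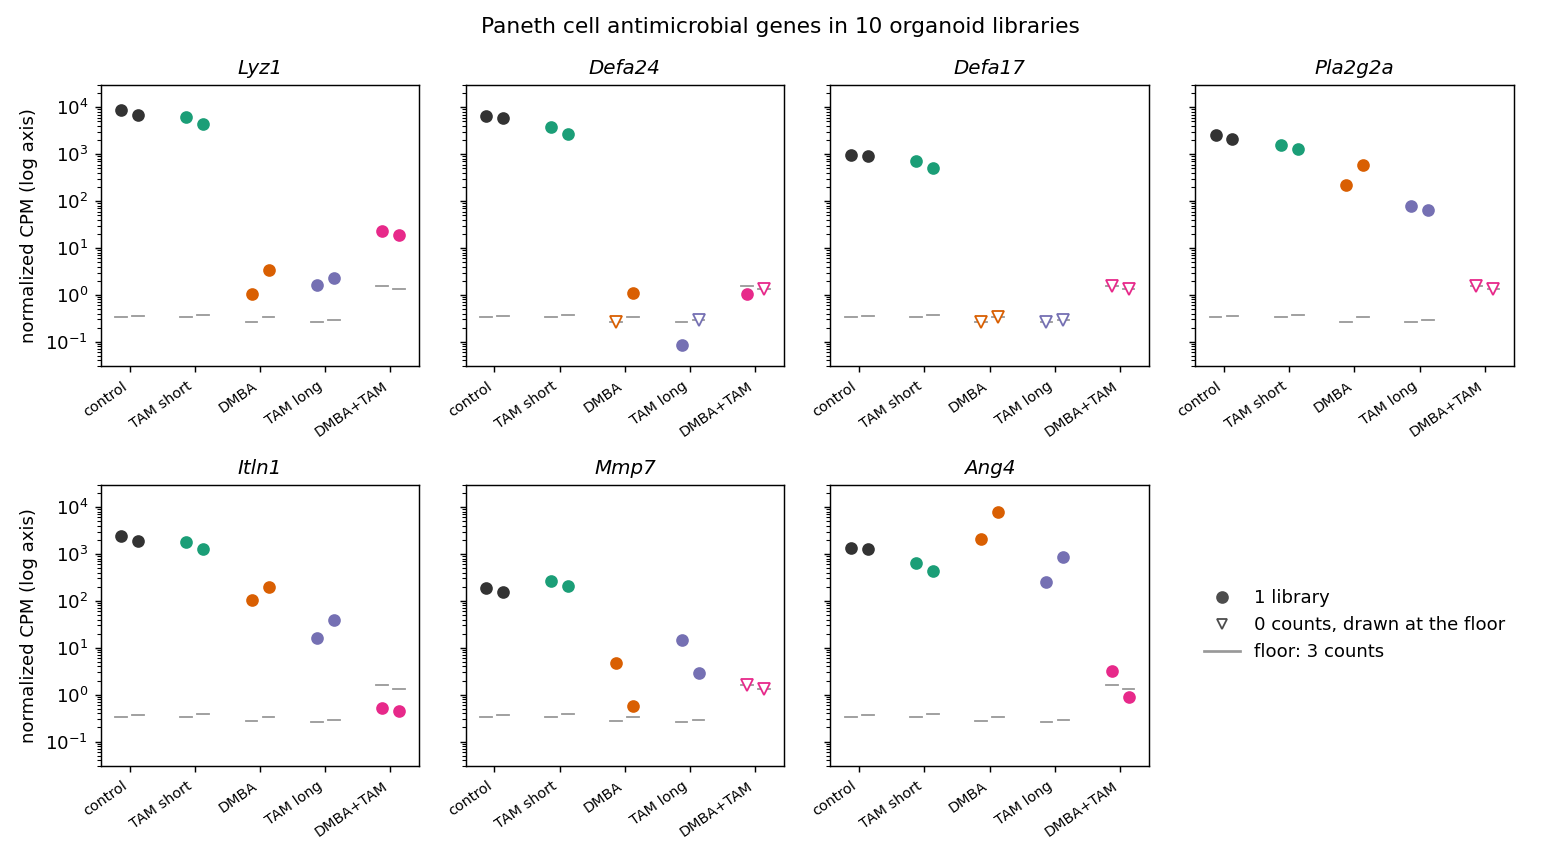
Normalized CPM (log axis) of each gene in each library, with points for libraries, grey ticks for the level of 3 counts, and open triangles for libraries with 0 counts, drawn at that tick. Control and TAM short stay high for all 7 genes, and *Ang4* lies above its control level in both DMBA libraries.

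*Lyz1* passed the test as lower in 3 of the 4 treated groups. It had 78166 and 58297 counts in control and 54178 and 35660 in TAM short, against 12 and 30 in DMBA, 19 and 23 in TAM long and 44 and 42 in DMBA+TAM. On the scale of normalized CPM these are 8838 and 7021 in control, 6121 and 4499.8 in TAM short, 1.07 and 3.37 in DMBA, 1.64 and 2.26 in TAM long, and 23.2 and 18.5 in DMBA+TAM. Control and TAM short were high and did not overlap, though the difference between them did not pass the test. DMBA and TAM long overlapped each other at the bottom, and DMBA+TAM lay in between. *Lyz1* fell by 11.84 on the log2 scale in DMBA against control (SE 0.51, adjusted p = 3.42e-07, edgeR quasi-likelihood test, adjusted by Benjamini and Hochberg's method over 16179 genes, as for every adjusted p below unless another tool is named). It fell by 11.99 in TAM long (SE 0.51, adjusted p = 2.98e-07) and fell by 8.57 in DMBA+TAM (SE 0.44, adjusted p = 1.45e-07). In DMBA+TAM it was higher than in DMBA by 3.27 (SE 0.44, adjusted p = 0.000144) and higher than in TAM long by 3.41 (SE 0.44, adjusted p = 0.000101). Between TAM long and DMBA the log2 difference was -0.15 (adjusted p = 0.902). Without DMBA replicate 1 or 2 the change in DMBA against control was -11.22 or -12.84, and that between DMBA+TAM and DMBA 2.61 or 4.24.

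*Lyz2* showed another order of groups. It had 60.6 and 96.7 normalized CPM in control, 156 and 157 in TAM short, 122 and 188 in DMBA, 139 and 152 in TAM long, and a far higher level of 2944 and 2941 in the DMBA+TAM libraries. Against control its log2 fold change was 5.23 in DMBA+TAM (SE 0.28, adjusted p = 1.90e-07), and 0.98, 0.89 and 0.99 in DMBA, TAM long and TAM short (adjusted p = 0.0082, 0.0135 and 0.0241). Of the reads of both lysozymes together, *Lyz1* took 99.3% and 98.6% in control and 97.5% and 96.6% in TAM short. In DMBA this share was 0.874% (95% Clopper-Pearson interval 0.452 to 1.52) and 1.76% (1.19 to 2.5), in TAM long 1.17% (0.705 to 1.82) and 1.46% (0.931 to 2.19), and in DMBA+TAM 0.783% (0.569 to 1.05) and 0.625% (0.451 to 0.844). These intervals cover counting error only. In these 3 groups *Lyz1* thus took 0.625% to 1.76% of the reads of both genes, and DMBA+TAM, the group with the highest *Lyz2*, also had the highest *Lyz1* of the 3 in normalized CPM. Whether reads of *Lyz2* were counted for *Lyz1* was not tested.

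**Figure D4:**
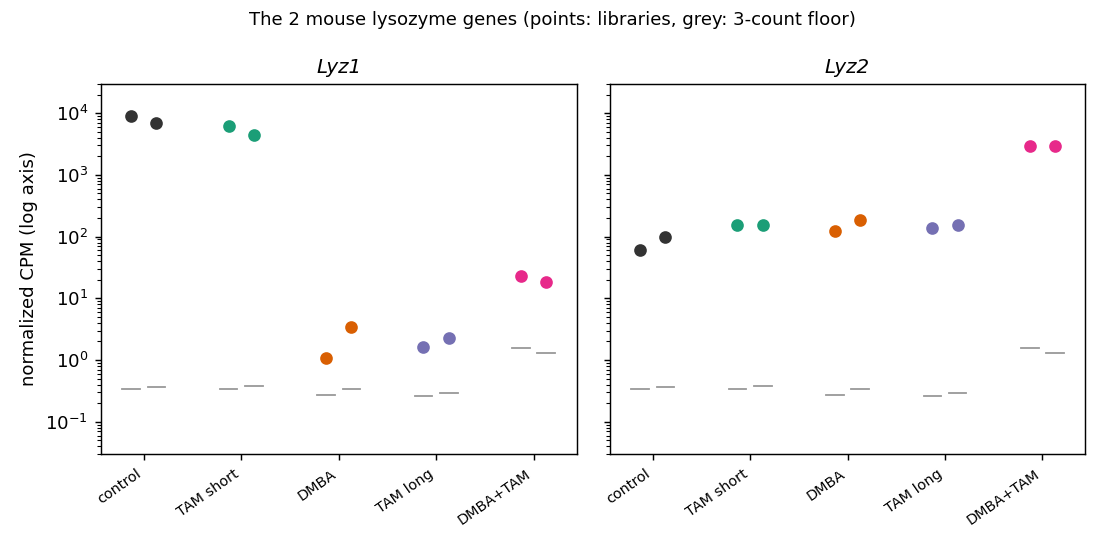
Normalized CPM (log axis) of *Lyz1* and *Lyz2*, 1 point per library, with grey ticks at the level of 3 counts. *Lyz1* is highest in control and *Lyz2* is highest in DMBA+TAM, where it reaches 2944 and 2941.

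Both alpha-defensins were at or near 0 in the groups DMBA, TAM long and DMBA+TAM. *Defa24* had 56827 and 50185 counts in control (6425 and 6044 normalized CPM) and 32863 and 21542 in TAM short (3713 and 2718). It had 0 and 10 counts in DMBA, 1 and 0 in TAM long, and 2 and 0 in DMBA+TAM. Control and TAM short lay far above the other 6 libraries, and no comparison among those 3 groups passed the test. *Defa24* fell by 13.54 on the log2 scale in DMBA against control (SE 0.74, adjusted p = 1.08e-06), and all 10 of the DMBA counts came from replicate 2 (-12.44 without replicate 1). In TAM long, on a single count, it was 135856-fold lower (95% counting interval 24383 to 5.37e+06, adjusted p = 8.52e-07), and in DMBA+TAM 12994-fold lower (3597 to 107297, adjusted p = 3.63e-07). With 1 library left out the fitted log2 change of *Defa24* ran from -18.59 to -12.44 in DMBA. It ran from -18.54 to -15.90 in TAM long and from -18.74 to -12.53 in DMBA+TAM. The lower ends are fits to a group left with 0 counts and give no fold size.

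*Defa17* had 8346 and 7625 counts in control (944 and 918 normalized CPM), 6421 and 4072 in TAM short (725 and 514), and 0 in all 6 libraries of the 3 other groups. Set against 3 counts per library, it was at least 3078-fold lower in DMBA (adjusted p = 1.07e-06), at least 3364-fold lower in TAM long (adjusted p = 1.02e-06) and at least 641-fold lower in DMBA+TAM (adjusted p = 4.21e-07) than in control. The smaller bound in DMBA+TAM goes with its smaller library totals. In FPKM, *Defa24* stood 6.45 and 6.24 times above *Defa17* in the control libraries and 4.85 and 5.01 times in TAM short, so the ratio of both defensins was lower in TAM short without overlap, a difference that was given no test and rests on the uncertain count of *Defa17*.

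Other alpha-defensin genes were likewise at or near 0, with sums of 0 to 2.81 normalized CPM in these 6 libraries against 2674 to 2866 in control. Of 46 names in this list 14 were in the table and 8 could be tested. All 8 were lower than in control with DMBA, TAM long and DMBA+TAM, beside 23.3%, 22.8% and 35.3% of all genes tested that were lower. These 8 passed the filter on low counts through control and TAM short, which nearly fixes this direction, so nothing is read from their count or median. Their median log2 fold change, with genes at 0 set to their bound, was -9.44, -10.06 and -7.78, and the median of all genes was 0.07, 0.05 and -0.17. Abundant members of the list included *Defa3* and *AY761184*. In TAM short 3 of the 8 were lower (7.8% of all genes) and 5 did not pass the test. *AY761184* fell by 1.98 there (SE 0.23, adjusted p = 0.0023), while for *Defa3* the value was -0.74 (adjusted p = 0.262).

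*Mmp7* (ENSMUSG00000018623, chr9:7692090-7699585, plus strand, 6 exons) was lower in the same 3 groups as its defensin substrates, at lower counts. It had 1641 and 1284 counts in control (186 and 155 normalized CPM), 2368 and 1660 in TAM short (268 and 209), 52 and 5 in DMBA (4.64 and 0.562), 166 and 30 in TAM long (14.3 and 2.95), and 0 and 0 in DMBA+TAM. TAM short lay above control without overlap, a difference that did not pass the test (adjusted p = 0.626), and DMBA and TAM long overlapped. *Mmp7* fell by 5.94 on the log2 scale in DMBA (SE 0.76, adjusted p = 0.000307) and fell by 4.28 in TAM long (SE 0.67, adjusted p = 0.000975), and was at least 117-fold lower in DMBA+TAM (adjusted p = 0.000243). Leaving out replicate 1 or 2 moved the value to -8.23 or -5.20 in DMBA and to -5.85 or -3.58 in TAM long, with an adjusted p of at most 0.0061. Replicate 2 held 0.121 times the level of replicate 1 in DMBA and 0.206 times in TAM long, the reverse of the order seen for *Ang4* and *Itln1* in the same libraries.

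*Itln1* (ENSMUSG00000038209, chr1:171518122-171535294, minus strand, 8 exons) encodes intelectin, a lectin that binds microbial glycans. It had 2408 and 1879.9 normalized CPM in control, 1806 and 1283 in TAM short, 104 and 198 in DMBA, 16.4 and 40.0 in TAM long, and 1 count in each DMBA+TAM library. No group overlapped another, but TAM short against control did not pass the test (adjusted p = 0.473). In that comparison 34.9% of all genes tested were lower without overlap. Against control it fell by 3.83 in DMBA (SE 0.44, adjusted p = 9.17e-05) and fell by 6.25 in TAM long (SE 0.49, adjusted p = 8.96e-06), and in DMBA+TAM it was 4482-fold lower (95% counting interval 1241 to 37008, adjusted p = 5.48e-07). Without TAM long replicate 2 the change in TAM long was -7.04.

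*Pla2g2a* (ENSMUSG00000058908, chr4:138831857-138835186, plus strand, 6 exons in the transcript used) encodes a secreted phospholipase that hydrolyses bacterial membrane lipids, and C57BL/6 mice are known to carry a disrupted copy of it. It had 2540.3 and 2097 normalized CPM in control, 1596 and 1296 in TAM short, 224 and 590.2 in DMBA, 79.7 and 64.3 in TAM long, and 0 counts in both DMBA+TAM libraries. The 5 groups formed the same descending order as for *Itln1*, again without overlap, and again TAM short against control did not pass the test (adjusted p = 0.272). It fell by 2.51 in DMBA (SE 0.39, adjusted p = 0.000927) and fell by 5.01 in TAM long (SE 0.44, adjusted p = 3.70e-05), and was at least 1596-fold lower in DMBA+TAM (adjusted p = 8.78e-07). Without DMBA replicate 2 the change in DMBA was -3.38.

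*Ang4* (ENSMUSG00000060615, chr14:51763878-51773590, minus strand, 2 exons), an angiogenin-family ribonuclease with antimicrobial activity that goblet cells can also make, was the 1 member higher in DMBA. It had 11653 and 10469 counts in control (1318 and 1261 normalized CPM), 5567 and 3408 in TAM short (629 and 430.0), 23306 and 69013 in DMBA (2081 and 7751), 2949 and 8891 in TAM long (254 and 874), and 6 and 2 in DMBA+TAM. Both DMBA libraries lay above both control libraries and all others, and the TAM short and TAM long libraries overlapped. *Ang4* rose by 1.93 on the log2 scale in DMBA against control (SE 0.64, adjusted p = 0.0308) and fell by 9.37 in DMBA+TAM (SE 1.03, adjusted p = 2.60e-05; -10.52 or -8.69 without DMBA+TAM replicate 1 or 2). The rise is not firm: with DESeq2 its adjusted p was 0.0617, without DMBA replicate 2 its log2 change was 0.68 (adjusted p = 0.320) and without DMBA replicate 1 it was 2.56, and without control replicate 1 or 2 the adjusted p was 0.139 or 0.153. Its change in TAM long against control was -1.19 on the log2 scale (SE 0.62, adjusted p = 0.146), with -2.35 without TAM long replicate 2 (adjusted p = 0.0343) and -0.57 without replicate 1 (adjusted p = 0.533). Replicate 2 held 3.72 times the level of replicate 1 in DMBA and 3.44 times in TAM long. In the same libraries the 7 goblet cell markers summed to 33967 and 87576 normalized CPM in the DMBA group. The sums were 21968 and 33218 in TAM long, 9122 to 10022 in control and 14146 to 15691 in TAM short. The markers did not all differ alike between the DMBA replicates. *Clca1* had 11186 and 48656.5 there and *Fcgbp* 4497 and 14934, while *Muc2* had 13699 and 13123. The keratin *Krt8* differed 0.920-fold between the DMBA replicates. The part of goblet cells in the *Ang4* level was not tested.

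The upstream sequences of *Ang4* and *Mmp7*, members called in opposite directions in DMBA by edgeR, are shown from 250 bases before the RefSeq start to the base before it (GRCm38.p6). As given above, the rise of *Ang4* is not firm. Capitals mark the letters TATAAA, a box found before many start sites, and TGANTCA, the motif of AP-1 factors, both searched on both strands.

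*Ang4*, chr14:51773591-51773840, minus strand: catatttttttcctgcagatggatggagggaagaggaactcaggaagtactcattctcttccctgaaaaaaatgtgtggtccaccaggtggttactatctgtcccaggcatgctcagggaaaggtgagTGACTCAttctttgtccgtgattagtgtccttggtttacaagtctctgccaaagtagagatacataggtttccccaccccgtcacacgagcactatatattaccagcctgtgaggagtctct

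*Mmp7*, chr9:7691840-7692089, plus strand: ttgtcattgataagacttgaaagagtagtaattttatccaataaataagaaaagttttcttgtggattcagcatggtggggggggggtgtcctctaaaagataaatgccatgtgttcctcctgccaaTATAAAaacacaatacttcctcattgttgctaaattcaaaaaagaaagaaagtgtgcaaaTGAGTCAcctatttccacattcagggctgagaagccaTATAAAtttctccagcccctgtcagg

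Each holds 1 AP-1 motif, which occurs in 6.75% of 32851 promoter windows of this length, and *Mmp7* also holds 2 matches to TATAAA, the nearer starting 26 bases before the start. TATAAA occurs in 12.4% of the windows. CTTTGA, the core of the motif bound by the TCF/LEF partners of beta-catenin, occurs in 13.8% of the windows and was not found in these windows of *Lyz1*, *Mmp7*, *Ang4* or *Itln1*. The letters CAGCTG, an E-box form held by 13% of windows, were not found in these 4 either. CANNTG, the general E-box, which contains CAGCTG, was found in all 4 and in 66.2% of all windows. TTTATG, the core of the CDX motif (10.8% of windows), was found in *Itln1* alone of these 4, 29 bases before the start. These matches describe letters only.

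Counted over the 7 genes, 6 were lower and 1 higher in DMBA than in control, where 23.3% of all genes tested were lower and 24.5% higher. In TAM long 6 were lower and 1 did not pass (22.8% of all genes lower), and in DMBA+TAM all 7 were lower (35.3% of all genes). The median log2 fold change of the 7, with genes at 0 set to their bound, was -5.94, -6.25 and -9.37 in these 3 groups, in that order, beside medians of 0.07, 0.05 and -0.17 over all genes tested. *Defa17* and *Defa24* passed the filter through control and TAM short alone, so their direction adds nothing to these counts. Both genes also pull the medians in DMBA and TAM long further down, so nothing is read from the medians. These comparisons share the control libraries, so their like directions are not separate observations.

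**Figure D5:**
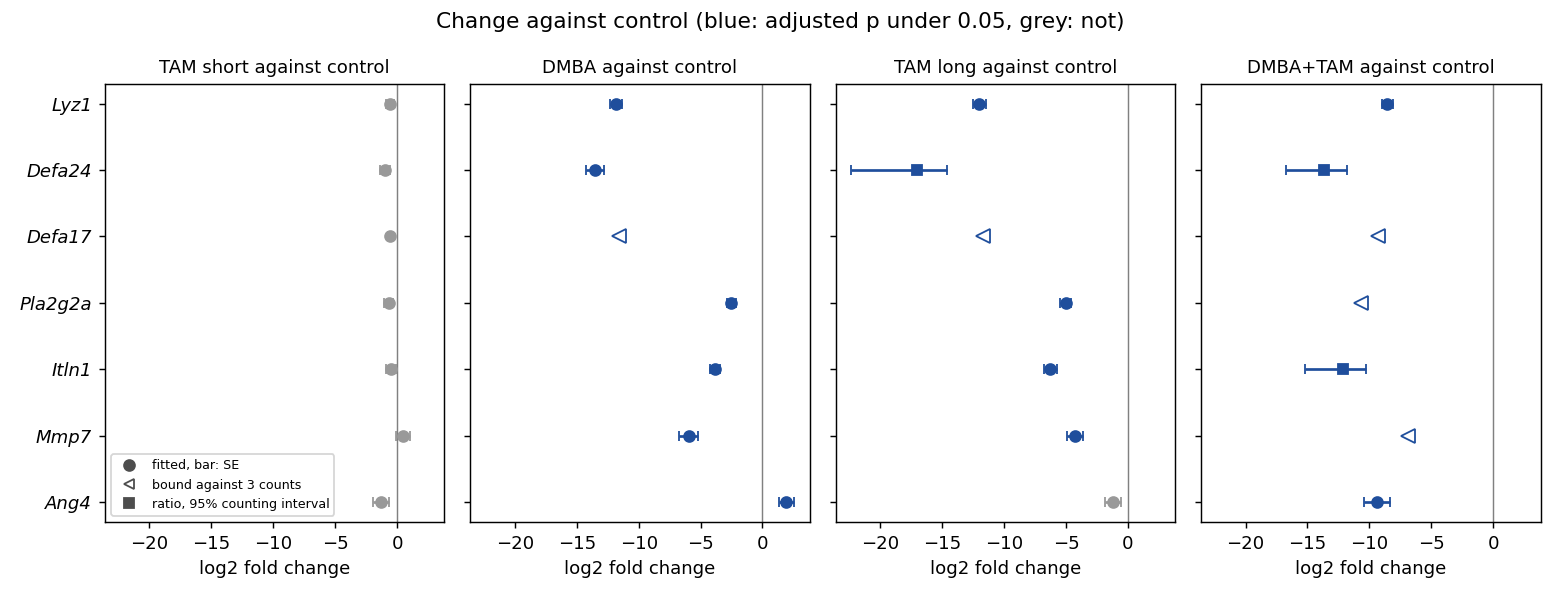
Log2 fold change of each gene against control in 4 groups, with circles and SE bars for fitted values, open triangles for lower bounds of a fall set against 3 counts, and squares for ratios on 1 to 3 counts with 95% counting intervals. In TAM short all values lie between -1.28 and 0.49 and are grey, and in DMBA only *Ang4* lies to the right of 0.

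TAM short was the treated group closest to control. All 7 genes missed the threshold of edgeR's test there (2 had an unadjusted p under 0.05), while 14.3% of all genes tested passed it (2317 genes, 7.8% lower and 6.52% higher). The log2 fold changes were -0.96 for *Defa24* (SE 0.41, adjusted p = 0.160), -1.28 for *Ang4* (adjusted p = 0.212), -0.68 for *Pla2g2a* (adjusted p = 0.272), -0.59 for *Defa17* (adjusted p = 0.0852), -0.58 for *Lyz1* (adjusted p = 0.258), -0.47 for *Itln1* (adjusted p = 0.473) and 0.49 for *Mmp7* (adjusted p = 0.626). In 6 genes both TAM short libraries lay below both control libraries, as in 34.9% of all genes, and in *Mmp7* both lay above, as in 28.3%. With DESeq2 1 of the 7, *Defa17*, was lower (adjusted p = 0.0285), and without the filter on low counts 6 genes were lower and 1 higher, in a fit whose p-values are not relied on. With 2 libraries per group the smallest two-sided p of an exact permutation test of 1 value is 0.333. Among the small intestine markers, *Fabp6*, a bile acid binding protein of the ileum, had a mean of 8406 normalized CPM in TAM short and 1.53 in control, and of the 10 markers 6 were lower and 2 higher.

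TAM long against TAM short, both given tamoxifen, gave 6 lower genes and 1 that did not pass (20.3% of all genes lower). *Defa17* and *Defa24* passed the filter through control and TAM short alone, so their direction adds nothing to this count either. *Lyz1* fell by 11.41 (SE 0.50, adjusted p = 6.98e-07), *Itln1* fell by 5.78 (adjusted p = 2.22e-05), *Mmp7* fell by 4.77 (adjusted p = 0.00074) and *Pla2g2a* fell by 4.33 (adjusted p = 0.000101). Without TAM long replicate 1 the change of *Mmp7* was -6.34, and without replicate 2 it was -4.07 and that of *Itln1* was -6.57. *Defa17* was at least 2239-fold lower (adjusted p = 2.31e-06) and *Defa24*, on 1 count, 70598-fold lower (95% counting interval 12671 to 2.79e+06, adjusted p = 2.23e-06). *Ang4* had a log2 difference of 0.09 (SE 0.62, adjusted p = 0.922). The tamoxifen label was thus shared by libraries with high and with low levels of 6 of the 7 transcripts, and in this comparison too the colon and small intestine markers differed as given above.

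TAM long against DMBA, the groups with similar segment markers, differed least over all genes (437 genes, 2.7%). Of the 7 genes 3 were lower in TAM long, where 1.46% of all genes were. *Ang4* fell by 3.12 (SE 0.67, adjusted p = 0.0429), *Itln1* fell by 2.42 (SE 0.42, adjusted p = 0.0208) and *Pla2g2a* fell by 2.50 (SE 0.40, adjusted p = 0.0197). Leaving out 1 library moved these values to between -4.27 and -1.88, -3.20 and -1.88, and -3.03 and -1.63. A fit without the DMBA+TAM libraries gave *Ang4* an adjusted p of 0.0542. Without TAM long replicate 1 none of these passed (adjusted p = 0.229, 0.144 and 0.158), without TAM long replicate 2 *Ang4* and *Pla2g2a* did not (adjusted p = 0.0553 and 0.127), and without DMBA replicate 2 *Ang4* did not (adjusted p = 0.0926). *Lyz1*, *Mmp7*, *Defa17* and *Defa24* did not pass, and *Mmp7* had a log2 difference of 1.67 (adjusted p = 0.285).

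DMBA+TAM was lower than DMBA in 3 genes and higher in 1 (29.9% and 25.2% of all genes), and lower than TAM long in 4 and higher in 1 (29.9% and 25.3%). The gene higher in both was *Lyz1*. *Pla2g2a* was at least 280-fold lower than in DMBA (adjusted p = 5.56e-06; 154-fold without DMBA replicate 2) and at least 49.6-fold lower than in TAM long (adjusted p = 4.80e-05). *Ang4* fell by 11.30 against DMBA and fell by 8.18 against TAM long on the log2 scale (adjusted p = 1.32e-05 and 8.47e-05; between -12.42 and -10.08 and between -9.30 and -7.04 with 1 library left out), and *Itln1* was 303-fold (95% counting interval 83.7 to 2501) and 57.1-fold (15.7 to 473) lower (adjusted p = 1.47e-05 and 0.00036). *Mmp7* was at least 5.94-fold lower than in TAM long (adjusted p = 0.0425; 2.03-fold or 9.86-fold without TAM long replicate 1 or 2), a call lost when only the library size was used for scaling (adjusted p = 0.0576) and without TAM long replicate 1, DMBA+TAM replicate 1 or DMBA+TAM replicate 2 (adjusted p = 0.102, 0.123 and 0.154). For *Itln1* against TAM long the log2 change was -5.83, and between -6.35 and -5.06 with 1 library left out. The epithelial markers were lower in DMBA+TAM in 8 of 8 genes in both comparisons, so these falls went with a fall of epithelial transcripts at large.

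Other genes linked to Paneth cells are counted against the shares of all genes tested, which were 23.3% lower and 24.5% higher in DMBA, 22.8% lower and 23.2% higher in TAM long, and 35.3% lower and 29% higher in DMBA+TAM. Of 11 further products of these cells 7 could be tested: 3 were lower and 3 higher in DMBA, 5 lower and 1 higher in TAM long, and 5 lower in DMBA+TAM. The C-type lectins *Reg3b* and *Reg3g*, which enterocytes also make, changed by -4.89 and -6.33 in DMBA (adjusted p = 0.00034 and 0.000407), where the replicates had 207 and 65.1 and 50.1 and 4.94 normalized CPM, and rose by 2.80 and 2.69 in TAM short (adjusted p = 0.0163 and 0.0451). *Mptx1*, a mucosal pentraxin, rose by 6.90 in DMBA (SE 1.75, adjusted p = 0.0092), where replicate 2 held 36.5 times the level of replicate 1. Of 8 regulators of the secretory lineage 5 were higher and 1 lower in DMBA, 4 were higher in TAM long, and 6 were lower and 1 higher in DMBA+TAM. *Spdef*, a transcription factor of goblet and Paneth cell maturation, rose by 2.63 in DMBA (SE 0.22, adjusted p = 1.43e-05) and by 2.22 in TAM long (adjusted p = 3.92e-05). In DMBA+TAM, on 0 and 3 counts, *Spdef* was 23.4-fold lower (95% counting interval 7.93 to 114, adjusted p = 2.98e-05). *Fzd5*, the Wnt receptor needed for Paneth cell maturation, fell by 0.61 in DMBA (adjusted p = 0.0076) and fell by 3.34 in DMBA+TAM (adjusted p = 2.22e-07). *Xbp1*, a regulator of the secretory apparatus, had a change of -0.06 in DMBA (adjusted p = 0.707) and rose by 0.70 in TAM short (adjusted p = 0.005).

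Of 6 factors through which Paneth cells serve stem cells or by which they are recognised, 2 were lower and 2 higher in DMBA, 3 lower and 2 higher in TAM long, and 4 lower and 1 higher in DMBA+TAM, and the counts in DMBA are near the shares of all genes given above. *Cd24a*, a surface marker used to sort Paneth cells and present on other crypt cells too, rose by 1.45 in DMBA (adjusted p = 0.0013) and 1.11 in TAM long (adjusted p = 0.0056), and fell by 3.73 in DMBA+TAM (adjusted p = 2.92e-06). Of 7 genes of autophagy and sensing that act in Paneth cell granule release, 2 were lower and 1 higher in DMBA, 1 lower and 1 higher in TAM long, and 2 lower and 2 higher in DMBA+TAM, near or under those shares. *Irgm1*, a GTPase of autophagy, changed by -1.02, -1.50 and -1.56 in DMBA, TAM long and DMBA+TAM (adjusted p = 0.000107, 1.11e-05 and 3.12e-06).

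Across the 10 libraries the members formed blocks, described here by Pearson's r on log2(normalized CPM + 1). All points share the group structure and the depth of their libraries. *Defa17* and *Defa24* had r = 0.998, *Lyz1* had 0.980 with *Defa24* and 0.977 with *Defa17*, and *Itln1* had 0.976 with *Pla2g2a*. *Ang4* had 0.869 with *Pla2g2a* but 0.121 with *Lyz1* and 0.306 with *Defa24*. Of 11060 genes averaging 50 counts or more, the nearest to *Lyz1* were *Anpep*, *Slc7a7* and *Cndp2* (r = 0.997, 0.997 and 0.995), and the nearest to *Defa24* were *Pdzk1*, *Defa3* and *2010106E10Rik* (0.999, 0.998 and 0.998). *Anpep*, *Slc7a7* and *Pdzk1* are known as genes of absorptive enterocytes. The nearest to *Defa17* were *Gm15292*, *Defa23* and *Lgals2*, to *Mmp7* *Slc7a9*, *C130074G19Rik* and *Ggt1*, to *Itln1* *Anxa13*, *Nup50* and *Itga6*, and to *Pla2g2a* *Hip1r*, *Sult2b1* and *Eci3*, all with r of at least 0.988. *Ang4* was nearest to *Clca3b* and *Sypl* (r = 0.987 and 0.984), and the next gene in order has no symbol in the table.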

How the data were processed

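Poly-A RNA of 10 organoid libraries was sequenced. The authors mapped reads with TopHat to GRCm38.p6, counted reads per gene with HTSeq and deposited raw counts and, from them, FPKM. Their FPKM used another length than the listed one for 10629 of 14915 genes compared. Counts were tested here, and FPKM was used only to compare levels between genes. The 41 columns of group means and of the authors' own comparisons (fold changes, p-values) were not used, and 5 lines without a gene ID were left out. HTSeq's strand setting is not given in the sources used here.

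Genes passing filterByExpr were scaled by TMM and fitted in 1 quasi-likelihood model with a mean per group over all 10 libraries (edgeR 4.0.16, R 4.3.3; adjusted p threshold 0.05). Groups followed the sample descriptions. Normalized CPM divides counts by the TMM-scaled total. A group at 0 was set to 3 counts per library for a bound, and 1 to 3 counts gave a ratio with an exact 95% interval; both cover counting error only. P-values rest on 1 estimate of the spread per gene, taken between the 2 libraries of a group and shared by all 5 groups. That spread may be technical. Depth ranged from 1592366 to 10923673 counts. Alternatives were DESeq2 1.42.0, library size scaling, no filter, the replicate number as a block, a fit without DMBA+TAM, and leaving out each library.

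Named genes were the 7 members, *Ppp2r1a*, *Lyz2*, up to 3 genes of each list with the highest mean normalized CPM (1 such gene is not reported here), and the 3 genes nearest to each member by Pearson's r; *Defa3* and *Defa30* were also named for shared sequence, *Mmp7* and *Ang4* promoters were shown for their direction, and *Krt8* is an epithelial marker. The members and lists were chosen with earlier results of these data known. Sequences came from GENCODE M21 and RefSeq; of the 7 members 4 had a promoter entry. On simulated counts for DMBA+TAM against control (16179 genes, 200 changed 4-fold) edgeR recovered 77% of changed genes with 1.91% false calls. All groups there had the same means but for these 200 genes, and the same trend of spread. In the real comparison 35.3% of genes were called lower and 29% higher, so these rates do not carry over to it. Tables used Python 3.11.15 and pandas 2.3.3.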

Additional observations from a re-analysis of the deposited data

Results flagged for a closer look

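The change of *Lyz1* with DMBA differed between organoids with and without tamoxifen, when TAM long was the tamoxifen group. It was 3.41 on the log2 scale between DMBA+TAM and TAM long and -11.84 between DMBA and control, and the difference of both, tested as the interaction term of the same edgeR fit, was 15.25 (SE 0.64, adjusted p = 1.14e-07, 2 libraries per group). The change of *Ang4* with DMBA differed in the other direction: it was -8.18 with and 1.93 without tamoxifen, an interaction of -10.11 (SE 1.21, adjusted p = 9.42e-05). With TAM short in place of TAM long, an alternative chosen after seeing the data, the change of *Lyz1* with tamoxifen was -8.00 (adjusted p = 2.12e-07), the opposite direction, and the interaction was 3.84 (SE 0.54, adjusted p = 0.000295). That of *Ang4* was -8.09 with an interaction of -10.02 (SE 1.21, adjusted p = 0.000116). *Pla2g2a* (adjusted p = 0.00285, negative) and *Defa24* (adjusted p = 0.0068, positive) also passed with TAM long, but rest on 1 and 2 groups at or under 3 counts per library, so no value is given. Whether *Lyz2* reads were counted for *Lyz1* in DMBA+TAM was not tested. Both terms rest on the DMBA+TAM libraries, whose epithelial markers summed to at most 32.7 normalized CPM, and on TAM long and DMBA libraries that share high colon markers, while control does not. The part of these differences was not tested.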

How the results depend on the processing

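Over settings other than leaving out a library, 230 of 248 values of the 7 genes kept their direction and side of the threshold. With DESeq2, 0 of the 7 genes were higher in DMBA than in control, 1 was lower in TAM short, and 857 genes differed between TAM long and DMBA (437 in edgeR). Without the filter on low counts, TAM short gave 6 lower and 1 higher, and TAM long against DMBA 1 higher and 1615 genes called. That fit gave *Itln1* in the latter comparison an adjusted p of 7.54e-46 against 0.0208 with the filter, so its calls are not relied on. With library size scaling, *Defa24* in DMBA+TAM against DMBA turned to a log2 difference of 0.12, on 2 counts or fewer in DMBA+TAM. Without the DMBA+TAM libraries in the fit, *Ang4* in TAM long against DMBA had an adjusted p of 0.0542. With TAM short in place of TAM long, chosen after seeing the data, the interaction of DMBA with TAM was called positive in 1 member in place of 2 (*Lyz1* and *Defa24*, the latter on groups at or near 0). The cause was not tested.

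Replicate numbers were not taken to pair libraries, as the rule asked for a correlation of deviations over 0.1 in every pair of groups. Of 10 pairs of groups, 1 had it (0.26, DMBA and TAM long). That rule cannot find a pairing of these 2 groups alone, which was not tested. With the replicate number as a block, *Ang4* in TAM long against TAM short turned to -0.17 and no member's call changed.

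Leaving out single libraries, 187 of 208 values kept both. DMBA against control had 0 to 1 members higher. Genes called ranged from 4946 to 5573 in TAM long against control (7444 with all libraries), 669 to 1057 in TAM short (2317), 4258 to 5017 in TAM long against TAM short (6835) and 58 to 1036 in TAM long against DMBA (437), where 0 to 4 members were lower. Log2 differences that changed sign ranged from -5.17 to 4.95 (*Defa24*, DMBA+TAM against DMBA), -1.07 to 0.72 (*Ang4*, TAM long against TAM short), -0.79 to 0.85 (*Lyz1*) and -4.99 to 1.96 (*Defa24*; both TAM long against DMBA). A lone remaining library was assumed to vary like the other groups. Depth limits DMBA+TAM most, where 3 counts equal 1.45 normalized CPM.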
